A study of Mus musculus with 12 samples.

Results

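The miR-21 arms are the 2 mature microRNAs (miRNAs) cut from the hairpin of the mouse gene Mir21a, listed on the array as mmu-miR-21-5p and mmu-miR-21-3p. They were taken by name, and they are 2 of the 696 mouse miRNA names on the array and 2 of the 443 that were detected on at least 1 array and tested. The study listed mmu-miR-21-3p among miRNAs changed in the myopic retina, and the pair was chosen by its difference between the myopic and the control retina on these same arrays. The values of that comparison are therefore given as a description, with no test. In these data the arms behaved differently. MiR-21-5p was detected on all 12 arrays, and its log2 signal after quantile normalization lay between 10.81 and 11.72. MiR-21-3p was detected on 5 of 6 retina arrays and on 0 of 6 sclera arrays.

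All mice were of the strain C57BL/6J and were 34 days old when the tissue was taken. A frosted diffuser, which deprives the eye of form vision and makes it grow too long, covered the right eye from day 24 for 10 days (myopic retina, myopic sclera). The uncovered left eyes of the same mice served as controls (control retina, control sclera). Each of the 4 groups had 3 arrays, and each array had the RNA of 3 pooled eyes, so that the spread is between pools and not between single mice. The control eye shares its animal with the deprived eye and is no eye of an untreated mouse.

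MiRNAs are short RNAs that pair with messenger RNAs through the seed, bases 2 to 8 of the miRNA, and lower the output of the messenger. From the miR-21 hairpin the 5p arm is the guide strand that is mostly kept, while the 3p arm is the passenger strand that is mostly degraded. MiR-21 is best known from cancer and from tissue fibrosis, where it is raised in fibroblasts and in injured epithelium of the heart, kidney and lung. The sclera is a tissue of fibroblasts and collagen, and the retina is a neural tissue.

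In RefSeq (mouse build GRCm38.p6) the hairpin lies on chr11:86584067-86584158 on the minus strand. Its 92 bases fall inside the annotated span of the gene Vmp1, 209 bases from the end of that span with the lower coordinate. RefSeq names the arms miR-21a-5p and miR-21a-3p. Both have 22 bases, and 16 bases of the loop lie between them. The mature sequences are shown with the seed in capitals, together with those of miR-21b and miR-21c, the other mouse miRNAs of that name, because a reader needs to see what the probes could also bind.
mmu-miR-21a-5p: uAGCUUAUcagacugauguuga
mmu-miR-21a-3p: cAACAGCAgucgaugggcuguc
mmu-miR-21b: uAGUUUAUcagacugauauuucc
mmu-miR-21c: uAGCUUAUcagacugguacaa

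The seed of miR-21a-5p was shared by miR-21c alone among the mouse miRNAs in RefSeq, and the seed of miR-21a-3p by no other. No name on the array stands for miR-21b or miR-21c.

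The array measured the guide arm with 2 probes and the passenger arm with 4, and each arm had 20 spots per array. The probes are shown because they read different stretches of the arms. They are written from their 5′ end, and capitals mark the bases that face the seed.
miR-21-5p, 20 bases: tcaacatcagtctgATAAGC
miR-21-5p, 19 bases: tcaacatcagtctgATAAG
miR-21-3p, 15 bases: gacagcccatcgacT
miR-21-3p, 14 bases: gacagcccatcgac
miR-21-3p, 13 bases: gacagcccatcga
miR-21-3p, 12 bases: gacagcccatcg

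The probes of the guide arm face 5 or 6 bases of the seed. Of the passenger probes only that of 15 bases faces the seed, with 1 base. No other mature mouse miRNA in RefSeq matched a probe over its whole length. MiR-21b differed from the probes of the guide arm at 4 or more bases. No such count is given for miR-21c, which shares with miR-21a-5p the seed and the bases that directly follow it. Binding of miR-21c to the probes of the guide arm was not tested. In the annotation of the array (build mm9) the probes lie on chr11:86397588-86397607 for miR-21-5p and on chr11:86397631-86397645 for miR-21-3p.

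The sclera arrays were dimmer than the retina arrays. The number of miRNAs detected was 353 to 372 in the control retina, 376 to 401 in the myopic retina, 274 to 317 in the control sclera and 290 to 317 in the myopic sclera. Sclera control 3 stood apart as the dimmest array, with a 75th percentile of 276 over the miRNAs detected on all arrays, against 436 to 803 on the other sclera arrays and 1024 to 1414 in the retina. The tissues carried their own markers. The summed quantile-normalized signal of 6 miRNAs of retinal neurons was 185183 to 195963 on the retina arrays and 2676 to 15277 on the sclera arrays. For 6 miRNAs of fibroblasts it was 52.7 to 308 in the retina and 16666 to 18262 in the sclera. Saturation was seen in 0 spots of miRNAs, and precision is limited by having 3 arrays a group.

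For the guide arm the total gene signal, which adds up the intensities of the detected probes of a miRNA, was 2126, 2393 and 3172 on control retina arrays 1 to 3. In the myopic retina it was 2532, 3333 and 2222. In the control sclera it was 2269, 2628 and 536, and in the myopic sclera 1786, 1804 and 1622. Before normalization the control and myopic retina overlapped, and the control sclera overlapped each other group. The myopic sclera, at 1622 to 1804, lay below every retina array, which is opposite to the order after normalization given next. The low value of 536 belonged to the dimmest array.

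All later values of miR-21-5p are log2 signals after a floor of 0.5 and quantile normalization, which gives every array the same distribution. The guide arm then had 10.90 ± 0.11 (SD, n = 3 for each group) in the control retina and 10.88 ± 0.06 in the myopic retina. It had 11.36 ± 0.40 in the control sclera and 11.56 ± 0.20 in the myopic sclera. In order from the lowest mean the groups were myopic retina, control retina, control sclera and myopic sclera. The first pair differed by 0.01, which is less than the spread, and the last pair by 0.20, which is also within the spread. Control retina and control sclera differed by 0.46, and their arrays overlapped.

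**Figure D1:**
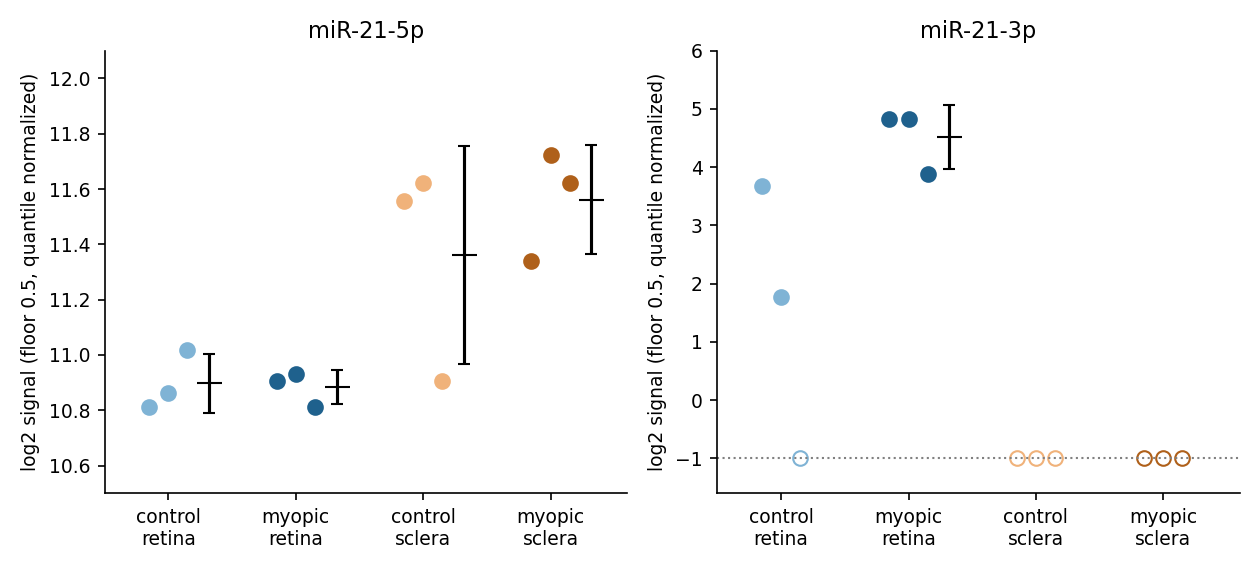
Log2 signal (floor of 0.5, quantile normalized) of miR-21-5p (left) and miR-21-3p (right) on each of the 12 arrays by group; filled points are detected, open points are undetected and stand at the floor of -1, and black bars are the mean and SD of groups with all 3 arrays detected. The guide arm lies between 10.81 and 11.72 throughout, whereas the passenger arm is at the floor on all 6 sclera arrays and on retina control 3.

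Form deprivation was followed by no detectable change of miR-21-5p in the sclera. The pools moved by -0.22, 0.10 and 0.71, and the largest of these rests on the dim sclera control 3. In limma, a linear model fitted to all 443 miRNAs, the difference (myopic minus control) was 0.20 on the log2 scale (SE 0.20, 95% interval -0.24 to 0.64, adjusted p = 1). Without sclera control 3 it was -0.03. By limma 0 of the 443 miRNAs were called in the sclera (0%, in either direction), where a call requires an adjusted p below 0.05 together with at least a 2-fold difference. MiR-21-3p was undetected on all 6 sclera arrays, so that no change can be given for it.

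In the retina the guide arm moved by 0.09, 0.07 and -0.20 in the 3 pools, with a mean of -0.01. The myopic and control values overlapped. With 75th percentile scaling over all miRNA names the mean was -0.39.

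The passenger arm was higher in the myopic retina in each pool. Its total gene signal was 25.5 on retina control 1, 3.67 on retina control 2 and not detected on retina control 3. In the myopic retina it was 53.7, 78.3 and 24.4. The value of retina control 1 was thus above that of retina myopia 3, and the groups overlapped before normalization. After quantile normalization the log2 signals were 3.67, 1.76 and -1 (undetected) in the control retina. They were 4.84, 4.84 and 3.89 in the myopic retina, and the groups no longer overlapped. On this scale the groups of 14.4% of the 443 miRNAs did not overlap in the retina. The differences were 1.16, 3.07 and 4.89 in pools 1 to 3, with a mean of 3.04, and the difference in pool 3 is set by the floor. By limma 1 of the 443 miRNAs was called in the retina (0.226%), of which 0 were higher (0%) and 1 was lower (0.226%) after deprivation. These counts rest on the weight of single arrays, with 66 higher and 56 lower without retina control 1, and 83 higher and 63 lower with array weights.

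The size of the retinal difference of miR-21-3p depended on how undetected signals were treated and on single arrays. It was 2.13 when undetected signals were set to the lowest detected signal on their array. It was 1.37 with the mean processed spot signal. It was 0.18 after correcting the background by normexp, used here with a chosen offset of 50 that is added to every signal. It was 1.75 without retina control 3 and 4.07 without retina control 1. In every one of these it was higher in the myopic retina.

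The software marks a probe as detected when its signal is above 3 times its error, and the detection of the passenger arm rested on this limit on 1 array. On retina control 2 only the probe of 14 bases passed, at 3.03 times its error. The probe of 15 bases reached 2.79 there. On retina control 1 all 4 probes passed, at 3.43 to 5.81 times their error. On retina control 3 the highest of the 4 was 1.47. On the myopic retina arrays all 4 probes passed, and the lowest was 3.51. On the sclera arrays 0 probes passed.

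Single spots gave the same order of the groups. In the myopic retina 51 of 60 spots of miR-21-3p were well above background, against 14 of 60 in the control retina, 1 of 60 in the control sclera and 0 of 60 in the myopic sclera. For the probe of 15 bases the mean spot signal (background-subtracted intensity) was 24.8, 10.1 and 4.17 on control retina arrays 1 to 3 and 42.6, 65.2 and 24.4 in the myopic retina. It lay between -0.80 and 1.33 in the sclera. For the probe of 12 bases it was 12.7, 3.73 and -1.75 in the control retina and 35.8, 48.4 and 12.4 in the myopic retina. In every retina pool each of the 4 probes was brighter after deprivation. The 4 probes read overlapping stretches of 1 arm on the same arrays, and their signals are not normalized. Their agreement therefore repeats the difference that chose the arm and adds no separate evidence. For the guide arm 60 of 60 spots were well above background in each group.

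**Figure D2:**
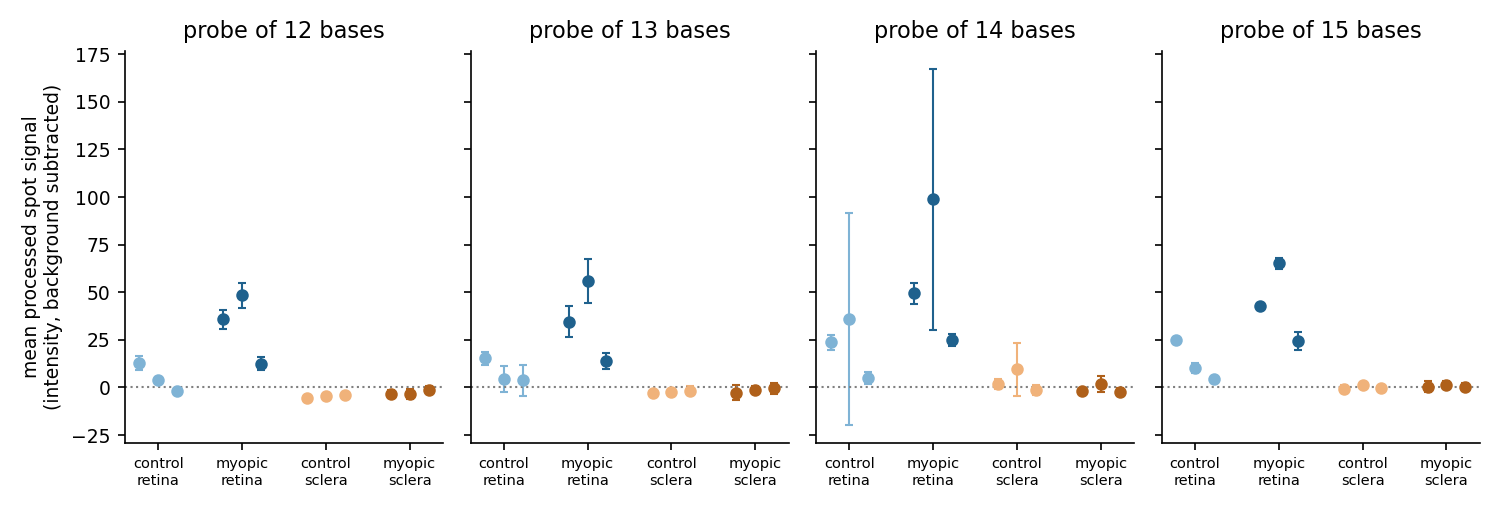
Mean processed spot signal (intensity after background subtraction) of the 4 probes of miR-21-3p on each array, by group; each point is 1 array with 5 spots, and bars are the SD over spots. In the sclera the points lie around 0 for each probe, except sclera control 2 at 14 bases (9.51). The wide bars at 14 bases on retina control 2, retina myopia 2 and sclera control 2 each come from 5 spots of which 1 was marked as an outlier.

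The number of miRNAs detected also moved between the retina groups. The summed signals of other cell types had ranges that overlapped or met, although the median change of several lists was below that of all miRNAs. The summed signal of the 6 fibroblast miRNAs was 63.8 to 308 in the control retina and 52.7 to 75.4 in the myopic retina. MiR-214-3p and miR-10b-5p were undetected in both, and miR-145-5p in the myopic retina alone. For 6 miRNAs of leukocytes it was 59.8 to 142 in the control and 47.3 to 64.1 in the myopic retina, with miR-142-5p undetected in both. For 4 miRNAs of surface and lens epithelium it was 65.9 to 3598 and 393 to 459. MiR-200c-3p was undetected in both, and miR-205-5p in the myopic retina alone. For muscle it was 124 to 264 and 151 to 180, and for endothelium 1112 to 1222 and 1051 to 1256. For red blood cells it was 175 to 283 and 220 to 294, and for pigment cells 14787 to 15135 and 13369 to 14787. The median log2 difference (myopic minus control retina) was -1.05 for fibroblasts, -1.29 for leukocytes and -0.92 for surface and lens epithelium. For muscle it was -0.67, for endothelium -0.54, for red blood cells -0.11, for pigment cells -0.09 and for retinal neurons 0.01. Over all miRNAs tested it was -0.12. More miRNAs were detected in the myopic retina, and retina control 3, with the fewest, was the array without miR-21-3p. The part of these in the difference of miR-21-3p was not tested. In pooled tissue, fewer cells of a type and less RNA per cell cannot be told apart.

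Between the tissues the guide arm was lower in the retina by less than the 2-fold limit. In control eyes the difference (retina minus sclera) was -0.46 on the log2 scale (SE 0.20, adjusted p = 0.064 by limma, lower in 2 of 3 pools), and it was not called. The pools gave -0.74, -0.76 and 0.11, and the last is the pool of the dim sclera control 3. Without that array the difference was -0.68 with an adjusted p of 0.0015. In myopic eyes it was -0.68 (SE 0.20, 95% interval -1.12 to -0.24, adjusted p = 0.011 by limma, lower in 3 of 3 pools). This passed the p-value threshold but not the fold threshold. The myopic groups did not overlap, which was so for 78.6% of the 443 miRNAs.

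This direction depends on the scaling. Without normalization the guide arm was higher in the retina, by 0.78 in control and 0.61 in myopic eyes, and with quantile normalization within each tissue by 0.68 and 0.46. The unnormalized signals of the single probes were also higher in the retina, by 0.65 (19 bases) and 0.82 (20 bases) in control eyes. Scaling moved all miRNAs along: the median difference of all miRNAs tested was 0.30 in control eyes as reported and 1.58 without normalization. Relative to this median the guide arm was lower in the retina under each of the 28 settings, by 0.22 to 1.08 in control and by 0.35 to 1.75 in myopic eyes. The smallest distances, 0.22 and 0.35, were those over miRNAs detected on all arrays, where the median itself was -0.24 and -0.32. The settings reuse the same arrays, so their agreement is no separate evidence.

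The passenger arm was seen in the retina alone. It entered the comparison through its retina arrays only, which are also those that chose the arms, and every sclera value is the floor. Its difference between the tissues is therefore described, and no p-value is read. In myopic eyes it was detected on 3 of 3 retina arrays and on 0 of 3 sclera arrays. With each array scaled by its 75th percentile, its mean log2 signal was 5.07 in the myopic retina, and a bound for the myopic sclera was 2.20. The distance between these log2 values is a fold of 7.34. With quantile normalization and the lowest detected signal as the floor the log2 difference was 2.80, slightly less than the log2 distance from 2.20 to 5.07. With normexp the log2 difference was 0.33. The fold compares group means and is no lower limit for single arrays or other settings. For the bound the arm was placed, on each sclera array, at the lowest detected signal, or at the brightest probe of the arm if that was higher. In control eyes it was detected on 2 of 3 retina arrays and on 0 of 3 sclera arrays. No fold is given there, because the bound came out under 1.

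Calls between the tissues were common. Of the 443 miRNAs, 50.6% were called in control eyes, with 27.5% higher and 23% lower in the retina. In myopic eyes 58.9% were called, with 32.5% higher and 26.4% lower. Detection in the retina alone was found for 115 of the 443 miRNAs (26%), and 12 other miRNAs had the same pattern over the 12 arrays as miR-21-3p.

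**Figure D3:**
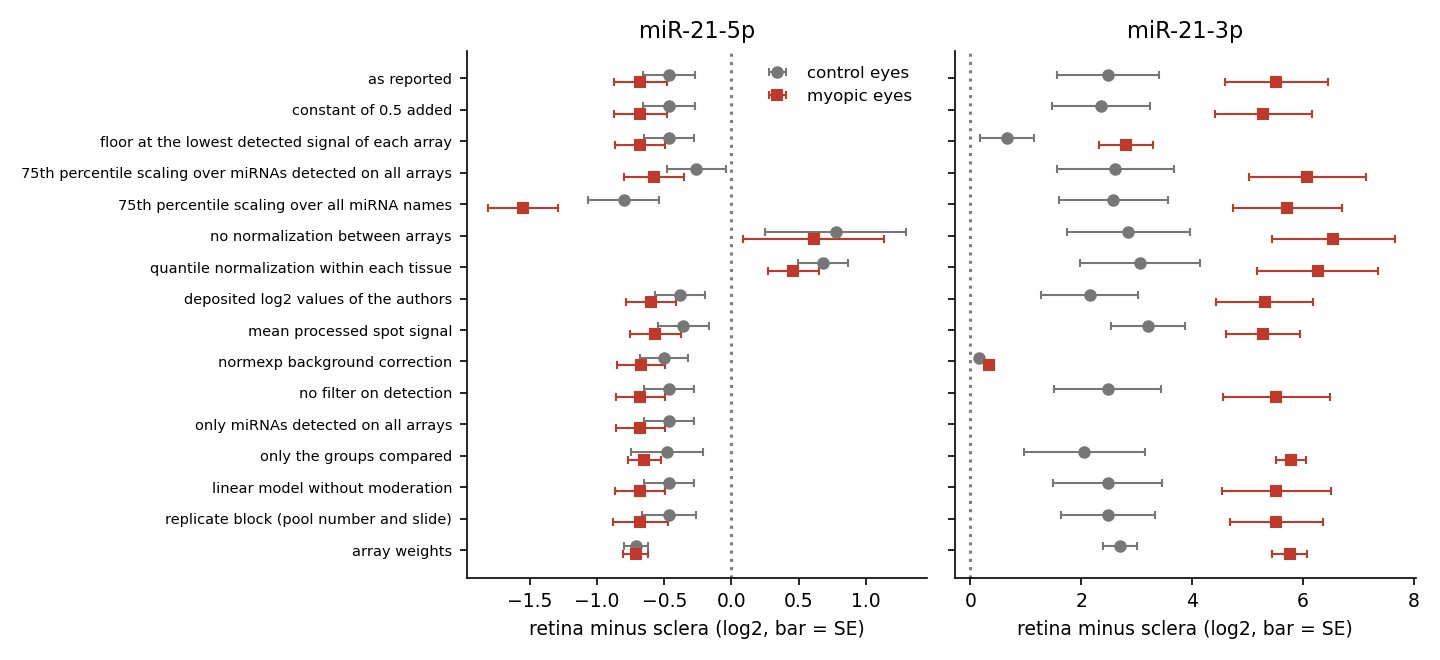
Difference between retina and sclera (log2, bar = SE) of miR-21-5p (left) and miR-21-3p (right) in control eyes (circles) and myopic eyes (squares) as reported and under each other setting. MiR-21-5p lies below 0 except without normalization (0.78 and 0.61) and with normalization within each tissue (0.68 and 0.46). MiR-21-3p lies above 0 in each, at a distance that is set by the value given to its undetected sclera signal.

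The distance between the arms is described for each tissue. On each array the log2 signal of miR-21-3p was subtracted from that of miR-21-5p. This says nothing of which arm is more abundant, since different probes are not compared in level. The distance was 7.14, 9.10 and 12.02 in the control retina and 6.07, 6.10 and 6.93 in the myopic retina. It was 11.91 to 12.62 in the control sclera and 12.34 to 12.72 in the myopic sclera, where the passenger arm stood at the floor. The distance in the sclera is therefore set by the floor and follows the guide arm alone. It was smaller in the retina in 5 of 6 pools, which restates where the passenger arm was detected. The exception was the third control pool, in which both tissues lacked it. The 6 pools come from 3 sets of mice, with both eyes of a set on the same slide. An exact permutation test over these sets cannot give a two-sided p under 0.25, so no test of this distance is read.

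**Figure D4:**
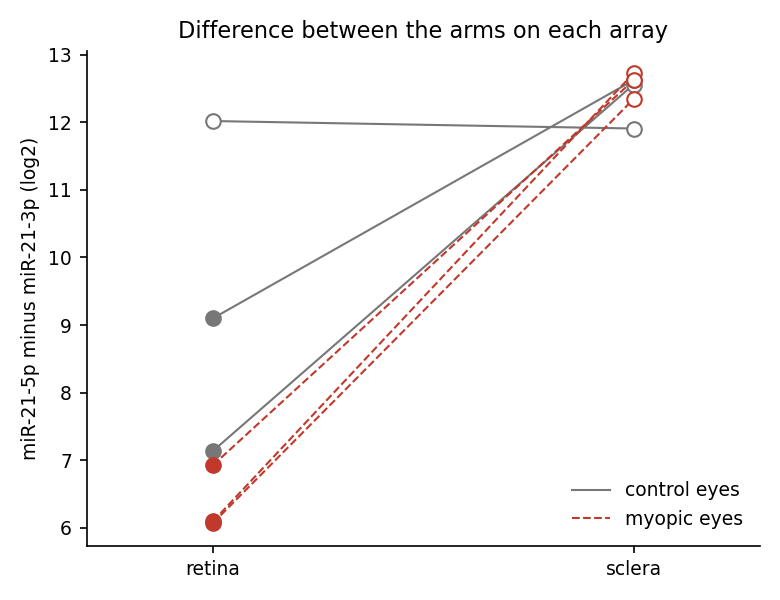
Log2 signal of miR-21-5p minus that of miR-21-3p on each array, with lines joining the retina and the sclera of the same pool (solid grey for control, dashed red for myopic eyes); open points are arrays on which miR-21-3p was undetected. The distance is smaller in the retina in 5 of 6 pools, and the sixth, control pool 3, runs nearly level at 12.02 and 11.91.

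Among the 75 pairs of 5p and 3p arms with both names tested, the gap between the changes of the miR-21 arms ranked 8th in size in the myopic retina (3.05, against a median of 0.62). It also ranked 8th between myopic retina and myopic sclera (6.20, against a median of 1.49) and 19th between the control tissues (2.94, against 1.16). These ranks hold pairs with an arm at the floor. The gap in the retina is nearly the change of miR-21-3p (3.04) that chose the arms, so a high rank was built in. The ranks between the tissues use the same retina arrays, and all are description alone. In 43 pairs both arms were detected on all 6 retina arrays, and there the largest gap in the retina was 2.16. One arm on all 12 arrays and the other in the retina alone was the pattern of 16 of the 75 pairs, among them miR-15a, miR-20a and miR-106b, and 5 pairs had the corresponding pattern in the sclera. These examples were chosen after their values were seen.

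The miRNAs with the pattern most like each arm were found by Pearson's r over the 12 arrays among miRNAs detected on all of them. The arrays share their normalization and fall into tissues, so that r is a description of likeness. For miR-21-5p they were let-7a-5p (0.95), miR-193-3p (0.94), let-7i-5p (0.89), miR-27a-3p (0.88) and let-7c-5p (0.88), against a median of 0.17 over 245 miRNAs. Within the 6 retina arrays r was 0.79 for let-7i-5p, 0.47 for miR-27a-3p, -0.09 for let-7c-5p and -0.00 for miR-193-3p. For let-7a-5p it could not be computed there, since its normalized value was the same on all retina arrays. For miR-21-3p they were miR-1894-3p (0.98), miR-338-5p (0.97), miR-500-3p (0.97), miR-669n (0.95) and miR-30d-5p (0.90), against a median of -0.56 over 246 miRNAs. The passenger arm stood at the floor on all 6 sclera arrays and on retina control 3, so r largely restates where it was detected. Within the 6 retina arrays these had r of 0.93 to 0.99 with the passenger arm. Those arrays hold the difference that chose the arm, and the study also listed miR-338-5p, miR-500-3p and miR-669n as raised there.

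Other miRNAs known from fibrosis were followed for comparison, in a list of 29 that were all on the array. Between the myopic and the control retina 0 of 29 were called higher (0% of all miRNAs tested) and 1 lower (0.226%). Without retina control 1 the list had 0 higher and 6 lower, and with array weights 1 higher and 7 lower. The 1 called lower with all arrays is miR-145-5p, known from smooth muscle and contractile fibroblasts, at 2.85 ± 0.86 (log2, SD, n = 3) in the control retina and undetected in the myopic retina. In the sclera 0 of 29 were called by limma, and the median difference was 0.06, against 0 over all miRNAs tested.

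Between the tissues the same list split. In control eyes 4 of 29 were called higher and 13 lower in the retina, where 27.5% and 23% of all miRNAs tested were, with a median of -0.57 against 0.30 over all miRNAs. In myopic eyes 5 were higher and 14 lower, where 32.5% and 26.4% of all were, with a median of -1.11 against 0.36. The split depends on the scaling, with 13 higher and 12 lower in control eyes without normalization. MiR-199a-3p and miR-199a-5p, made in mesenchymal cells, differed by -7.90 and -7.78 on the log2 scale between control retina and control sclera. MiR-133b-3p, a miRNA of muscle, differed by -4.50. MiR-132-3p, known from active neurons, was at 9.56 ± 0.22 (log2, SD, n = 3) in the control retina and 5.96 ± 0.09 in the control sclera (SE of the difference 0.18, adjusted p = 1.1e-07 by limma). MiR-29c-3p and miR-29b-3p, which repress collagen genes, were higher by 2.87 and 1.78. Among members of the list detected on all arrays compared these 6 were also the largest called in each direction in myopic eyes, and they kept their direction under all 15 other settings with all arrays. MiR-29b-3p lost its call in myopic eyes under 1 of these (75th percentile scaling over all names, 0.56). The guide arm, at -0.46 and -0.68, was not called. It lies between these miRNAs by the way they were picked, as the largest called changes. The medians of the list were -0.57 and -1.11.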

How the data were processed

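Retina and sclera of C57BL/6J mice were profiled on 12 Agilent miRNA arrays, with 100 ng of RNA from pools of 3 eyes and 3 arrays per group. The labels name single mice for each array, while the extraction protocol names pools. The authors deposited the intensity of every spot from Feature Extraction (version 11.0.1.1 per the file headers), which subtracts the background. The total gene signal sums the detected probes, and an undetected miRNA is listed at 0.1. A table of log2 values deposited by the authors (437 mouse miRNAs) was made with Partek 6.6 per their processing notes. They correlated with those computed here at 0.999, and were an alternative.

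Total gene signals were floored at 0.5, quantile normalized over 696 names, log2-transformed and fitted with limma 3.58.1 (R 4.3.3) for the 4 groups at once, with 8 residual degrees of freedom. MiRNAs without detection on any array (253) were not tested. P-values are two-sided with Benjamini-Hochberg adjustment over 443 miRNAs, and the fit was tested on simulated data. Bounds and settings named 75th percentile divide each array by that percentile. Sequences are those of RefSeq. Figures used Python 3.11.15 and matplotlib 3.10.9.

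The members, the fibrosis list and the marker lists were chosen with earlier results of these data known. Besides the arms, the text names the 5 miRNAs most like each arm, those sharing a seed, and up to 3 of the fibrosis list in each direction per comparison with the largest called change among those detected on all arrays compared. Further marker lists were those of pigment cells, red blood cells, muscle and endothelium. Of their members tested, 1 of 2, 0 of 2, 0 of 3 and 0 of 2 were called higher in the control retina than in the control sclera, and 0, 1, 3 and 2 lower.

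Same-numbered arrays come from the same mice per the labels and share a slide, so that the number pairs the samples. The correlation of their deviations from the group means over the miRNAs detected on all arrays came to 0.38, -0.46 and 0.59 in retina and to -0.14, -0.16 and -0.00 in sclera. Each group had the same position on all 3 slides, so position and group cannot be told apart. The difference between the retinal and the scleral response was not tested for the arms, since the retinal change chose them.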

Additional observations from a re-analysis of the deposited data

How the results depend on the processing

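Each value was recomputed with other floors, scalings, signals, filters and models and without each array in turn. The direction of miR-21-5p between retina and sclera reversed without normalization (0.78 in control, 0.61 in myopic eyes) and with quantile normalization within each tissue (0.68 and 0.46), and with 75th percentile scaling over all names it was called in myopic eyes (-1.55). Without 1 array each it ranged from -0.68 to -0.34 and from -0.79 to -0.61, and its scleral change from -0.027 to 0.33, with the reversed sign only without sclera control 3. Its retinal change was -0.39 with 75th percentile scaling over all names.

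The values of miR-21-3p between the tissues are set by its undetected sclera signal, and no p-value is read from them. For the same reason no call is read. In control eyes the difference was 2.48 as fitted, with no filter and with no moderation. It was 0.67 with the lowest detected signal as floor and 2.62 with 75th percentile scaling over miRNAs detected on all arrays. With the deposited log2 values it was 2.15, with normexp 0.15 and with only the groups compared 2.05. It ranged from 1.34 to 3.78 without 1 array each. In myopic eyes it was 5.52 as fitted and 0.33 with normexp, and the range without 1 array each was 5.08 to 5.77. The retinal difference was 0.18 with normexp and 1.75 to 4.07 without 1 array each. The difference in distance between the arms was -4.57, and it was -4.70 with processed spots, -0.83 with normexp and -5.61 to -3.89 without 1 array each. Swapping the tissues for both eyes of a set of mice together was added after the data were seen and gave an exact p of 0.25, the smallest it can give.

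The number of miRNAs called in the retina was 0 with the lowest floor, processed spots, normexp, only miRNAs detected on all arrays or only the groups compared, 2 with the deposited values, 146 with array weights, and 1 to 122 without 1 array each (122 without retina control 1). In the sclera it was 1 with array weights and 0 to 1 without 1 array each. Between the control tissues it was 224, with 82 under normexp, 128 over miRNAs detected on all arrays and 191 to 224 without 1 array each. Between the myopic tissues it was 261, with 101, 139 and 249 to 269. The higher share of calls between control tissues was 54.5%, and 83.6% without normalization. With the replicate block (pool number) miR-21-3p differed by 2.48 in control eyes and miR-21-5p by -0.46, and the block changed no call of miR-21-5p. The numbers called with it were 224 (119 higher, 105 lower, against 122 and 102) between the control and 262 between the myopic tissues. No value exists for miR-21-3p in the sclera, or over miRNAs detected on all arrays. The 3 arrays per group and the detection limit bound what can be said of the passenger arm.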
